A study of Mus musculus with 2 samples.

Results

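Arterial endothelial cells line the arteries and arterioles that feed the secretory lobules of the salivary gland. They were taken here from 2 single-cell RNA-seq libraries of stromal-enriched glands, 1 from NOD/ShiLtJ mice and 1 from CD1 mice. A barcode was called arterial when it held at least 3 UMIs (unique molecular identifiers, 1 per captured transcript) of the endothelial genes Pecam1, Cdh5 and Egfl7 and at least 2 UMIs of the arterial genes Sema3g, Sox17 and Gja4. It also had to hold at most 1 UMI of the venous genes Ackr1 and Selp, at most 1 of Cd3d, Cd3e and Cd3g, at most 1 of C1qa and Csf1r, and none of Cd79a and Ms4a1, which are T cell, macrophage and B cell genes. The members were thus chosen by measured UMIs of these genes. This gave 1037 cells of the 10591 barcodes kept, 224 of 4917 in NOD and 813 of 5674 in CD1.

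Both groups were female and 20 weeks old and were left untreated. NOD/ShiLtJ is an inbred strain that develops autoimmune diabetes and a disease resembling Sjögren's, and CD1 is an outbred stock. Submandibular glands with the attached sublingual glands were pooled before dissociation, from 4 mice of each strain by the study's text and 3 by the labels, and epithelial and red cells were depleted with EpCAM and Ter119 antibodies. With 1 pool and 1 library for each strain, strain, pool and library cannot be told apart and no difference between the strains was tested. The intervals given are 95% exact intervals, which cover counting error only. The arterial cells held 1775691 UMIs in NOD and 7371911 in CD1, with medians of 7096.5 and 7605 UMIs per cell, and no arterial barcode occurred in both libraries, although 6 of the kept barcodes did.

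Arterial identity is set during development by VEGF and Notch signalling together with SoxF transcription factors such as Sox17, and it is kept in part by shear stress from blood flow. Arterial cells couple through the connexins encoded by Gja4 and Gja5, and they set the tone of the underlying smooth muscle through endothelin-1 and nitric oxide. They also secrete parts of the elastic and basement membrane matrix of the vessel wall. Interferons, made in the tissue or carried by the blood, induce many genes of endothelial cells, in part through an interferon-stimulated response element in their promoters.

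The rule genes chose the cells, so their levels are given as a description. Sema3g, a secreted semaphorin, was read at 239.9 CPM (UMIs per 1000000 UMIs of the class) in NOD arterial cells and 162.0 in CD1, against 4.7 and 5.3 in capillary cells. Sox17 was read at 265.8 and 246.5 CPM and Gja4 at 202.7 and 235.9. The capillary cells used for comparison were endothelial barcodes with at least 2 Plvap UMIs and at most 1 arterial UMI, 546 in NOD and 1414 in CD1. All 3 arterial genes were present together in 63 of the 224 NOD cells and in 265 of the 813 CD1 cells. Levels are compared between cells and libraries, never between genes.

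The threshold of 2 UMIs ran through a continuum. Exactly 2 arterial UMIs were held by 66 NOD and 240 CD1 arterial cells, while 153 NOD and 433 CD1 endothelial barcodes stood just outside with 1. At least 5 were held by 96 NOD cells (42.9% of the arterial cells, interval 36.3 to 49.6) and by 366 CD1 cells (45.0%, 41.6 to 48.5). The 3 immune limits together removed 27 barcodes in NOD and 65 in CD1 that otherwise met the rule.

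Genes that the rule did not use gave a graded answer to the label. Edn1, which encodes the vasoconstrictor endothelin-1, stood at 24.7 CPM in NOD capillary cells, 80.9 in arterial cells with exactly 2 arterial UMIs, 169.5 in those with 3 or 4 and 479.0 in those with at least 5. In CD1 the same steps were 5.0, 19.4, 29.0 and 182.5. Mecom, a zinc finger transcription factor of arterial endothelium, went along the same steps from 275.7 to 1592.7 in NOD and from 137.3 to 935.3 in CD1. Edn1 and Mecom were thus higher in the chosen cells than in capillary cells in both libraries. Mecom was also present in the few venous cells. Its venous level was 515.5 CPM for NOD (319.1 to 788.1), below the 1057.1 of all NOD arterial cells, and 715.4 for CD1 (553.3 to 910.1), where all arterial cells had 614.8.

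Other arterial genes were concentrated in the cells with at least 5 arterial UMIs. Gja5 (connexin 40) was at 7.0 CPM in NOD cells with exactly 2 arterial UMIs, beside 7.2 in capillary cells, and reached 164.9 in the cells with at least 5. In CD1 its values were 6.8, 1.0 and 84.2. Fbln5, an elastic fibre protein, stood at 2.5 in NOD capillary cells and 249.2 in the cells with at least 5, and at 0.9 and 120.6 in CD1. Bmx, a kinase of arterial endothelium, went from 1.9 to 114.2 in NOD and from 1.2 to 38.2 in CD1. T cells of the same libraries held at most 0.236 CPM of Edn1, Gja5, Fbln5 or Bmx. Droplets of 10 to 100 UMIs, which in the main hold no cell, had more. Fbln5 was at 6.9 CPM in the NOD droplets and 16.0 in the CD1 droplets, the latter above its 8.7 in CD1 cells with exactly 2 arterial UMIs, and Bmx was at 1.4 and 4.2. The part of free RNA in the cells with exactly 2 was not tested.

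Capillary genes stayed high in the arterial cells. Plvap, the protein of fenestral diaphragms, was read at 1448.6 CPM in NOD cells with at least 5 arterial UMIs, against 2209.3 in capillary cells, and at 1840.4 against 2308.6 in CD1. The capillary cells were chosen by Plvap, so its lower level in arterial cells was partly set by that choice and is a description only. Kdr, the main VEGF receptor, stood at 1335.7 against 2076.3 in NOD and 2230.7 against 2836.2 in CD1. The venous gene Vwf was at 1.7 CPM in NOD and 1.9 in CD1 arterial cells, and the lymphatic gene Lyve1 at 0 and 0.1. Prox1, the lymphatic regulator, had 2 UMIs in NOD and 40 UMIs from 6 cells in CD1. Of these 40, 36 lay in the cells with at least 5 arterial UMIs (10.6 CPM, against 0.9 in CD1 capillary cells), as did all 95 CD1 UMIs of the lymphatic chemokine gene Ccl21a, from 1 cell. The cells with at least 5 arterial UMIs thus had the highest levels of the arterial genes named and, in CD1, most of the Prox1 and Ccl21a UMIs, while those with exactly 2 had lower arterial levels, with Gja5 at the capillary level in NOD. Kdr was not below the capillary level in the cells with exactly 2, with 2083.3 CPM for NOD and 2984.6 for CD1.

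**Figure D1:**
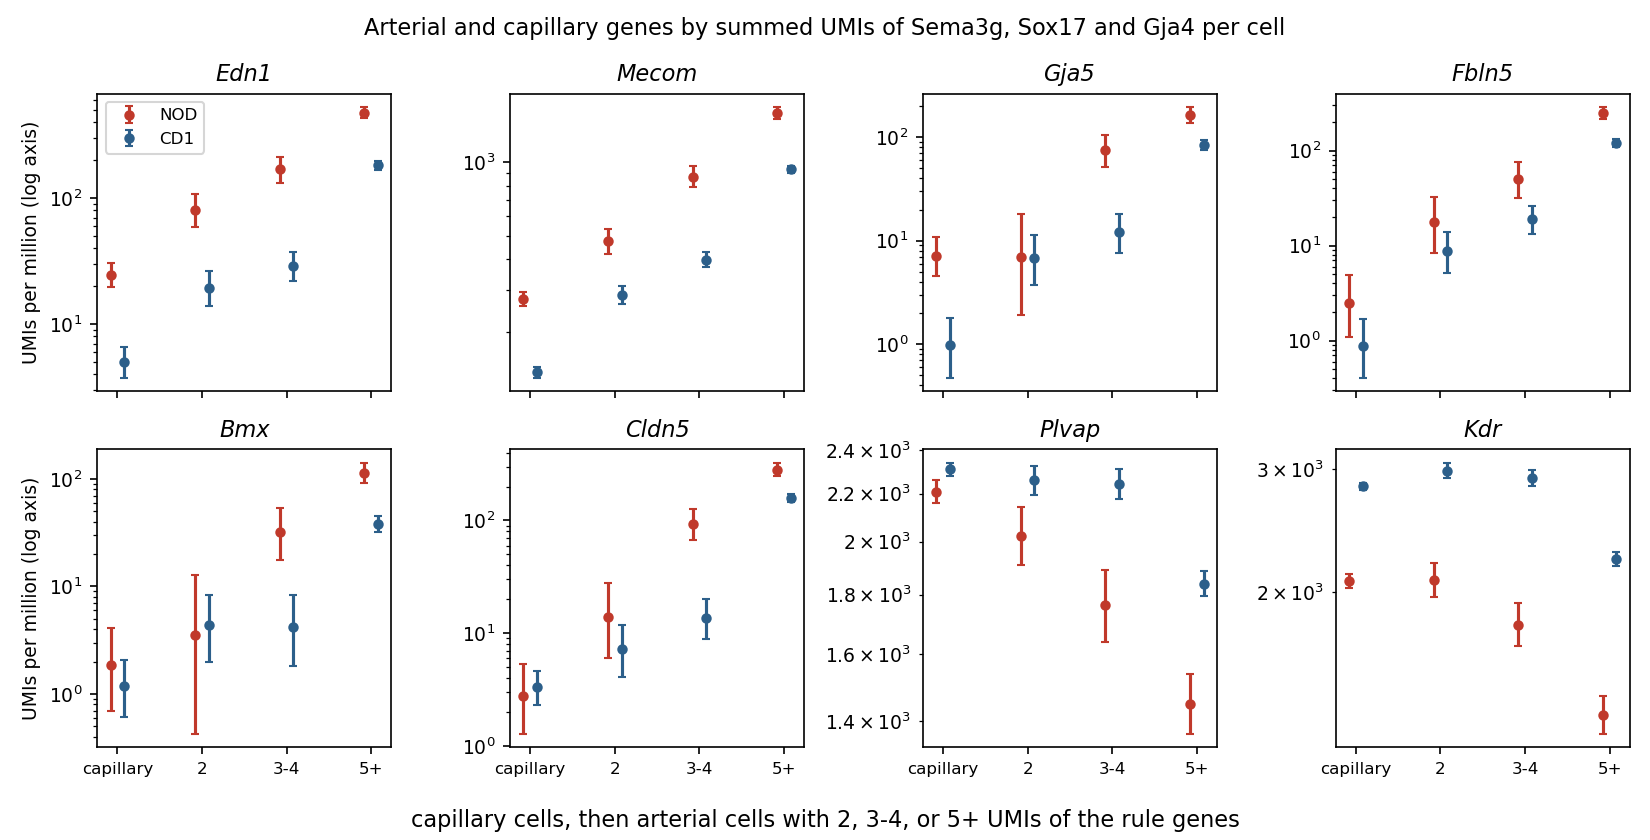
CPM (log axes that differ between panels) of 8 genes outside the arterial rule genes in capillary cells and in arterial cells with 2, 3 to 4, or at least 5 UMIs of Sema3g, Sox17 and Gja4; points are library sums with 95% Poisson intervals, NOD in red and CD1 in blue. Edn1, Mecom, Gja5, Fbln5, Bmx and Cldn5 are highest in the cells with at least 5, where Plvap and Kdr are lowest. Plvap UMIs were used to choose the capillary cells.

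Arterial cells were a smaller part of the NOD library. They made up 4.56% of kept NOD barcodes (interval 3.99 to 5.18) and 14.3% of CD1 barcodes (13.4 to 15.3). T cells were 40.1% of the NOD library and 3.01% of the CD1 library, and macrophages 9.23% and 36.7%. The part of these immune cells and of the depletion step in the arterial share was not tested. Among endothelial cells the arterial share was 25.9% in NOD (23.03 to 29.0) and 33.97% in CD1 (32.1 to 35.9). When barcodes were thinned to 2000 UMIs before the rule was applied, fewer were counted. This left 783 NOD and 2173 CD1 endothelial barcodes, instead of 864 and 2393. The shares among these were 12.01% (9.81 to 14.5) and 14.9% (13.4 to 16.4). The difference between the shares was not tested. At 5 or more arterial UMIs, a threshold chosen after seeing the data, the shares were 11.1% (9.09 to 13.4) and 15.3% (13.9 to 16.8). All these intervals cover counting error of cells and not variation between pools. Whether they overlap therefore cannot decide if the strains differ.

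**Figure D2:**
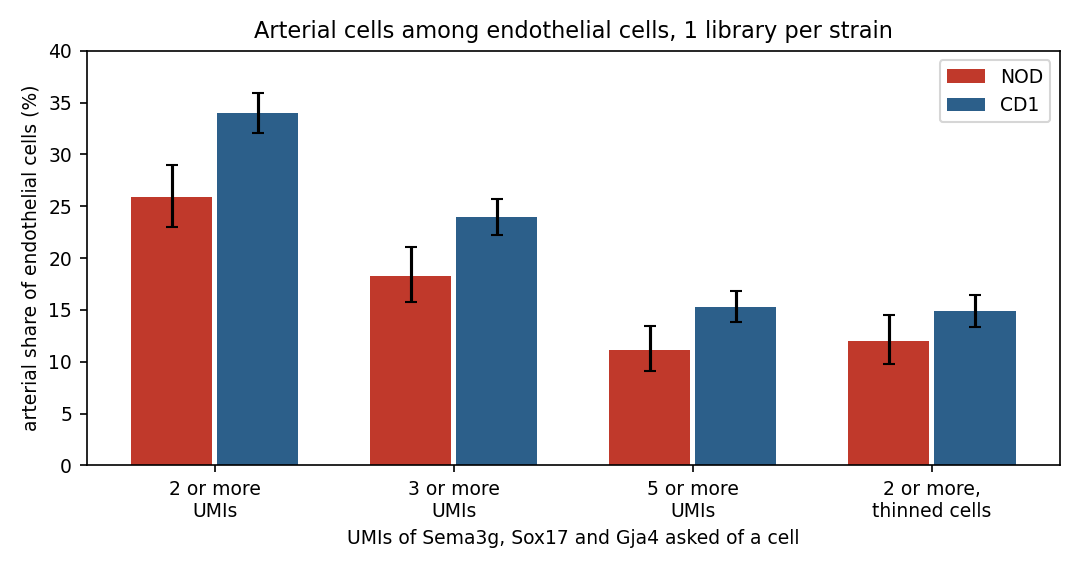
Arterial cells as a percentage of endothelial cells under 3 minimum numbers of UMIs of Sema3g, Sox17 and Gja4 and for barcodes thinned to 2000 UMIs, with exact 95% binomial intervals, for NOD (red) and CD1 (blue). The thinned setting counted fewer barcodes. NOD bars are lower throughout. Both shares fall, from 25.9% against 33.97% at the stated rule to 12.01% against 14.9% after thinning. The gap in percentage points narrows with them and does not give the ratio of the shares.

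Arterial cells were next compared with capillary cells of the same library. Of 14012 genes with at least 20 UMIs over the 4 sums, 243 were at least 2-fold higher in arterial cells in both libraries (1.73%) and 85 at least 2-fold lower (0.607%). Of the 29 genes measured from a list of arterial identity, 13 were at least 2-fold higher in both libraries and none was lower, with a median log2 ratio of 1.09 against -0.02 over all genes. Since the rule chose these cells by arterial genes, the counts describe the cells and test nothing.

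Within that list the Notch target Hey1 had log2 ratios of 2.06 in NOD and 2.54 in CD1, Edn1 of 3.48 and 4.28, and the chemokine gene Cxcl12 of 1.29 and 1.05. Other genes of the list differed less. The Notch ligand gene Dll4 had ratios of 1.04 and 0.55, and the VEGF co-receptor gene Nrp1 of -0.29 and -0.18. The genes of the list thus ranged from several-fold higher in arterial cells to slightly lower.

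Large ratios over capillary cells were also found for genes outside the rule. Pcsk5, a proprotein convertase, was read at 179.6 CPM in NOD arterial cells and 1.2 in capillary cells, a log2 ratio of 7.17 (interval 5.80 to 9.05). In CD1 it was read at 151.0 and 2.5, a ratio of 5.94 (5.37 to 6.58). Col8a1, a short-chain collagen of vessel walls, had ratios of 4.59 and 4.28, and Fn1, fibronectin, 4.87 and 3.76. Cldn5, a tight junction protein, had ratios of 5.74 and 4.56 and was detected in 55 of 224 NOD and 126 of 813 CD1 arterial cells. Igf2, an insulin-like growth factor, had ratios of 6.90 (4.37 to 12.2) and 5.56 (4.17 to 7.46), the former over 1 UMI in NOD capillary cells. These 5 genes had the same direction in both strains, and the intervals of the 2 strains overlapped for each of them. Markers of mural cells, which surround vessels, were also higher in arterial than in capillary cells. Their median log2 ratio was 1.47, with 8 of 11 measured genes above 0 in both libraries. The part of mural RNA in the ratios above was not tested.

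Venous cells, endothelial barcodes with at least 2 Ackr1 and Selp UMIs and at most 1 arterial UMI, numbered 5 in NOD and 10 in CD1, so that single UMIs moved their levels. Genes higher in arterial cells than in both capillary and venous cells, ranked by the interval bound nearest 0, were led by Glul, glutamine synthetase, at 420.7 CPM in NOD arterial cells against 62.5 in capillary cells and 1 UMI in venous cells. In CD1 Glul stood at 245.8 against 39.8 and 3 UMIs. The others of the 12 were Tgfb2, Alpl, Slc26a10, Alox12, Nebl, Col8a1, Cxcl12, Pcsk5, Cdh13, Nudt4 and Cd36. Cd36, a fatty acid receptor often used as a capillary gene, had arterial over capillary log2 ratios of 1.54 in NOD and 1.47 in CD1. It was at 488.9 CPM in CD1 macrophages, above its 457.0 in CD1 arterial cells, and at 288.4 in NOD macrophages. Nebl was also present in T cells, at 102.5 and 77.7 CPM, as was Nudt4, at 52.3 and 54.9, and Glul was at 109.8 and 143.2 in macrophages. These 4 genes did not mark arterial cells alone.

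The 8 genes ranked lowest in arterial cells by the same bound against both capillary and venous cells were Kirrel3, Nt5e, Chrm2, Lepr, Cysltr1, Bace2, Klk8 and Insr. Kirrel3, an immunoglobulin-family adhesion gene, was at 99.1 CPM in NOD arterial cells against 299.5 in capillary cells, and at 47.1 against 110.7 in CD1. Its log2 ratios were -1.60 and -1.23. Lepr, the leptin receptor, had ratios of -1.61 and -1.15, and Insr, the insulin receptor, -0.78 and -0.53. Several of the 8 were also present in immune cells. In T cells Klk8 was at 55.9 CPM for NOD and 68.3 for CD1, Nt5e at 86.6 and 33.1 and Insr at 49.5 and 32.1, and in macrophages Cysltr1 was at 71.2 and 121.1. Against capillary cells alone, Vdr, the vitamin D receptor, had ratios of -1.98 and -1.24 and Gm33777 of -2.25 and -1.88, further below 0 than Insr.

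**Figure D3:**
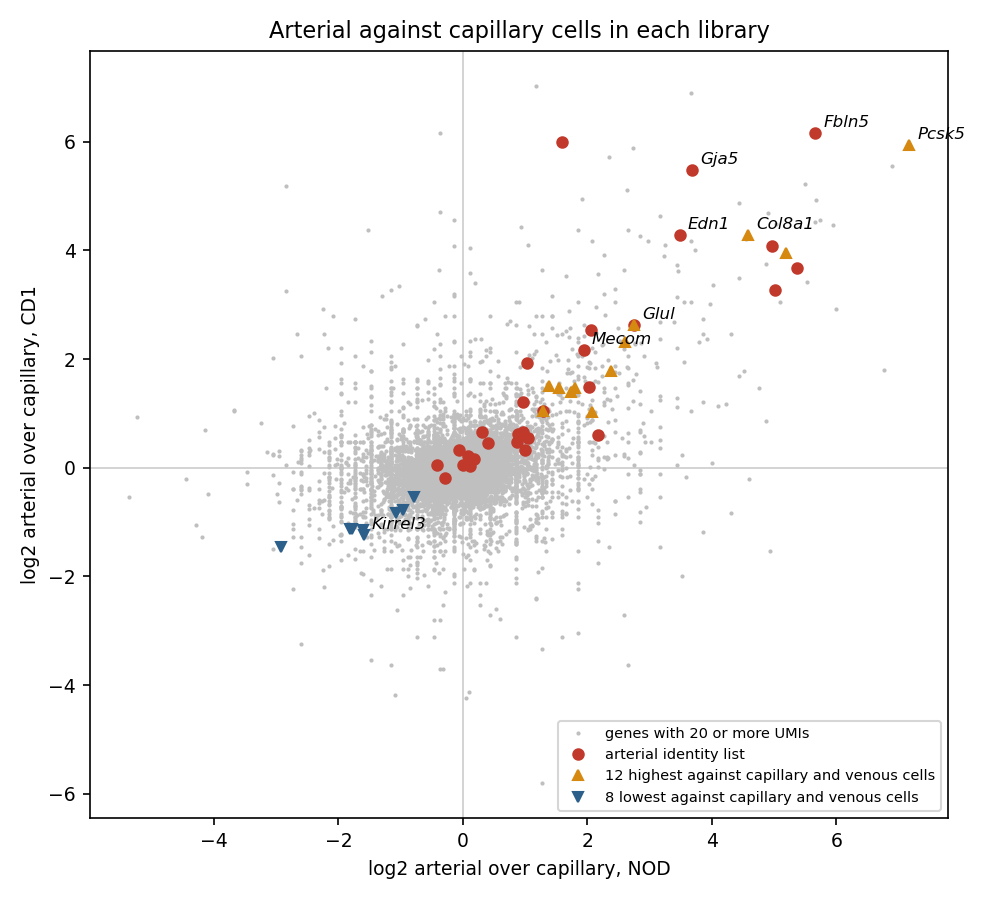
Log2 ratio of arterial over capillary cells in NOD (x axis) and CD1 (y axis) for genes with at least 20 UMIs, with zero sums set to 3 counts. The arterial identity list (red) runs from near 0 for genes such as Nrp1 to above 3 in both libraries for Edn1, Gja5, Fbln5 and Bmx, and the 8 genes ranked lowest against both capillary and venous cells (blue) lie below 0 in both.

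NOD arterial cells differed from CD1 arterial cells in interferon response genes, in Edn1 and Ednrb, and in single genes that were nearly silent in 1 strain. Of 12111 genes with at least 20 UMIs in the 2 libraries together, 623 were at least 2-fold higher in NOD (5.14%) and 563 at least 2-fold lower (4.65%). The median log2 ratio over these genes was 0.03. Which of the 2 counts was larger depended on the setting: 357 genes were higher and 590 lower with the rule applied to thinned barcodes, 524 and 636 with at least 3 arterial UMIs, 399 and 689 with at least 5, and 595 and 599 with median-of-ratios scaling. Each value that follows is NOD over CD1 in arterial cells unless another class is named.

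Interferon response genes were higher in NOD. Of 36 genes, all with at least 20 UMIs, 15 were at least 2-fold higher, 34 lay above 0 and none was 2-fold lower, with a median log2 ratio of 0.91. Rsad2, which encodes the antiviral enzyme viperin, was read at 358.2 CPM in NOD (interval 330.9 to 387.1) and 90.5 in CD1 (83.7 to 97.6). The log2 ratio was 1.98, with bounds of 1.83 and 2.14. Ifit3, which encodes an antiviral RNA-response protein, stood at 107.0 and 29.8, a ratio of 1.84 (1.55 to 2.13). Gbp5, a guanylate-binding GTPase, stood at 182.5 and 71.9 (1.34, 1.14 to 1.55). The immunity-related GTPase gene Iigp1 was at 830.1 and 391.5 (1.08, 0.99 to 1.18). The intervals of Rsad2, Ifit3 and Gbp5 lay above a ratio of 2-fold.

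The excess was spread over the arterial cells. The summed list gave a median of 65.3 UMIs per 10000 in NOD arterial cells, with a 10th to 90th percentile of 31.5 to 131.6, against 43.1 in CD1 with 21.3 to 80.3. The cells of both strains overlapped. After thinning to 2000 UMIs, Rsad2 was detected in 34.9% of 215 NOD arterial cells and 11.1% of 799 CD1 cells, against 55.4% and 29.8% unthinned. In T cells, with median depths of 7228 and 9120 UMIs, it was detected after thinning in 1.93% of 1964 NOD cells and in 0 of 169 CD1 cells. By a limit of 3 counts the latter allows a detected share of up to 1.78% at this depth. It sets no limit on the share of cells expressing the gene. In both strains the share of arterial cells with Rsad2 detected stood above that of T cells. The whole list summed to 2972.7 CPM in NOD and 1717.1 in CD1 T cells. In arterial cells it summed to 8188.4 and 5043.2, so the sum was higher in NOD in both classes.

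In capillary cells the median of the list was 0.90. Over all 12814 genes measured there, 5.89% were at least 2-fold higher in NOD and 3.93% at least 2-fold lower. Rsad2 had a ratio of 2.16 there and Ifit3 of 1.71, whereas Ifitm3 had -0.07. Arterial and capillary cells come from the same 2 libraries, so their ratios share both pools and are given side by side only. Irf1, an early interferon-gamma target, had a ratio of 0.11 (-0.07 to 0.29), and Ifitm3, the member with the most UMIs in both strains, of 0.16.

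Both chemokine genes of the list had their NOD counts in few cells. Cxcl9, a T cell attractant, gave 35 UMIs in 6 NOD arterial cells and 0 in CD1, at least 48.4-fold higher when CD1 is set to 3 counts. Cxcl10 gave 44 UMIs in 10 NOD cells and 6 UMIs in 6 CD1 cells, a log2 ratio of 4.93 (3.69 to 6.45). In capillary cells the ratios were 1.38 and 0.04. Zbp1, a nucleic acid sensor, was found in 22 NOD and 16 CD1 arterial cells, with a ratio of 3.01 (2.15 to 3.92).

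**Figure D4:**
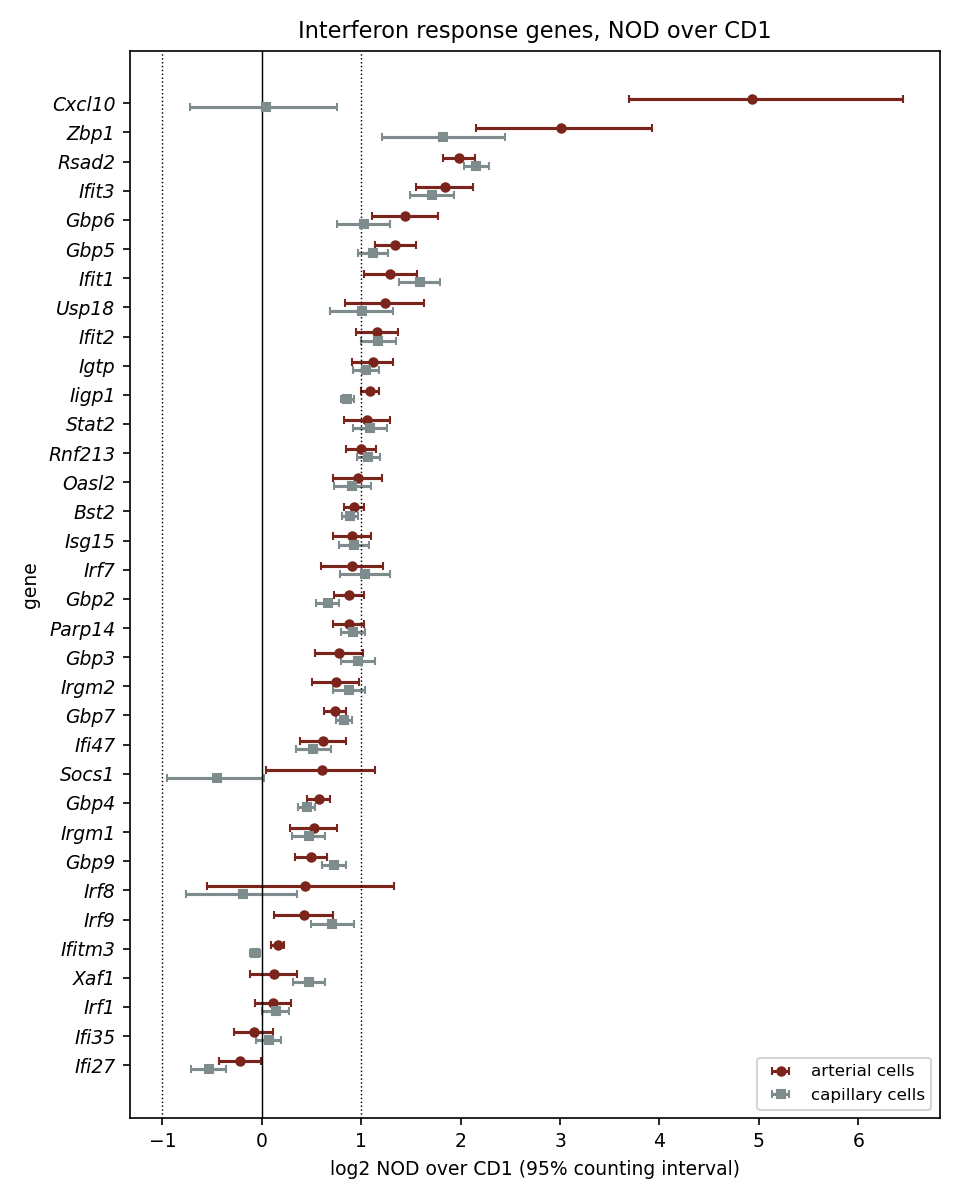
Log2 ratio of NOD over CD1 with 95% counting intervals for members of the interferon response list, in arterial cells (dark circles) and capillary cells (grey squares); dotted lines mark 2-fold. Most genes lie between 0 and 2 in both classes, Rsad2 and Ifit3 near 2, and Cxcl10 is far to the right in arterial cells and near 0 in capillary cells.

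The promoters of the interferon genes were searched for the motif of the interferon-stimulated response element. Of the 36 genes, 27 matched a RefSeq promoter (GRCm38.p6, 250 bases before to 50 after the start of the gene). A GAAA followed after any 2 bases by another GAAA, the core of this element, occurred on either strand in promoters of 16 of the 27 genes (59.3%), against 3.99% of all 27025 genes in the same table. The motif was also found for 5 of 23 arterial identity genes (21.7%) and 5 of 17 MHC class I genes (29.4%). The interferon list was made of genes known to respond to interferon, so its share describes the list and tests nothing. The promoters of 3 genes with a match, whose ratio intervals lay above 2-fold, are printed. Among other genes with ratios given above, Ifitm3 had 2 matches and Cxcl10 had 1, while Cxcl9 and Irf1 had none. Matches of the motif are in capitals, which on the printed strand read as TTTC, 2 bases and TTTC. The matches start 120 bases before the start of Rsad2, 156 and 122 bases before that of Ifit3 and 165 bases before that of Gbp5. The windows are chr12:26456403-26456702 on the minus strand, chr19:34583279-34583578 on the plus strand and chr3:142496684-142496983 on the plus strand.
Rsad2: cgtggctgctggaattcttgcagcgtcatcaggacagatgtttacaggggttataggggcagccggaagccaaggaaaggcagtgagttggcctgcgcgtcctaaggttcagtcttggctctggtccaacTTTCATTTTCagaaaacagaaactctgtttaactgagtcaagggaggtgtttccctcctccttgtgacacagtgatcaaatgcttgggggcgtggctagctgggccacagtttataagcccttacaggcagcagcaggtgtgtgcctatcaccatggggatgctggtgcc
Ifit3: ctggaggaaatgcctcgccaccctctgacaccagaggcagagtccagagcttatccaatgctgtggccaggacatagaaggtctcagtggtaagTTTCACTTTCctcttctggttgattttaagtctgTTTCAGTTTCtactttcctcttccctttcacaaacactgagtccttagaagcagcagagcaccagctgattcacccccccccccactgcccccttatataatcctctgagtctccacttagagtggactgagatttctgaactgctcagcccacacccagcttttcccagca
Gbp5: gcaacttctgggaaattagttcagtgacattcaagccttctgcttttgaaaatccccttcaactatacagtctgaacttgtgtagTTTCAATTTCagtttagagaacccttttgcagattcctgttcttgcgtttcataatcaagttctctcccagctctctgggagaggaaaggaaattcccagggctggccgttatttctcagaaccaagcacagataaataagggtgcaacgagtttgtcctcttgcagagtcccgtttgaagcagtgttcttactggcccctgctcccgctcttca
A match is a run of letters in the reference sequence and was not tested as a binding site, and the counts themselves were mapped to another build.

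The 20 measured MHC class I genes had a median ratio of 0.03, with 1 at least 2-fold higher and 2 lower. Nlrc5, the transactivator of class I genes, had 107.0 CPM in the NOD cells against 39.5 in the CD1 cells, a ratio of 1.44 (1.17 to 1.71). B2m, the shared light chain, had a ratio of 0.34 and the heavy chain gene H2-K1 of 0.07, whereas H2-D1 was at -0.45. H2-T23 (43.4 against 178.2, -2.04) and H2-T22 (6.8 against 38.5, -2.51) were the 2 lower genes. In T cells their ratios were -1.05 and -1.96. Reads of both strains were mapped to a reference that carries neither strain's alleles in full, and the part of this in the H2 genes was not tested. The 7 measured MHC class II genes all lay above 0, with a median of 0.56, and 1 was at least 2-fold higher. The list summed to 315.9 CPM in NOD and 228.8 in CD1 arterial cells, beside 5262.7 and 12276.2 in droplets of 10 to 100 UMIs, and the part of free RNA in these values was not tested. Ciita, the class II transactivator, was found in 22 NOD and 17 CD1 cells with a ratio of 3.02 (2.25 to 3.83), while Cd74 had 0.56 and H2-Aa 0.06.

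Genes of leukocyte recruitment were mixed. Of 19 measured, 4 were at least 2-fold higher in NOD and none lower, with a median of 0.07. Vcam1, the ligand of the leukocyte integrin VLA-4, was read at 33.8 CPM in NOD and 5.8 in CD1 arterial cells, a ratio of 2.53 (1.95 to 3.13). Cells with a Vcam1 UMI numbered 17 of 224 for NOD and 17 of 813 for CD1. Icam1 had a ratio of 0.69 (0.29 to 1.08) and Cxcl12, the member with the most UMIs, of -0.23. Ccl5 gave 44 UMIs in 36 NOD cells and 32 UMIs in 6 CD1 cells. The NK cell list, which also holds Ccl5, summed to 3608.4 CPM in NOD droplets of 10 to 100 UMIs and 933.7 in CD1, and the part of free RNA in the Ccl5 value was not tested.

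Endothelin and its receptor lay in opposite directions. Edn1 was read at 275.4 CPM in NOD arterial cells and 97.3 in CD1, a ratio of 1.502 (1.33 to 1.67). After thinning it was detected in 28.4% of NOD and 14.1% of CD1 arterial cells, and in none of 1964 NOD T cells. Ednrb, the endothelial receptor that couples endothelin to nitric oxide release, was at 73.8 in NOD and 238.9 in CD1, a ratio of -1.70 (-1.96 to -1.44). Ece1, the converting enzyme, had a ratio of 0.04 and Nos3, the endothelial nitric oxide synthase, of -0.19 (-0.51 to 0.12). Capillary cells gave 2.30 for Edn1 and -1.60 for Ednrb. Across the 24 measured genes of vascular tone, 5 were 2-fold higher and 1 was lower, with a median of 0.05. Among the 5, Pde3a and Gucy1a1 came from 2 NOD cells each, whereas the natriuretic peptide receptor gene Npr3 (1.29) came from 15 and the potassium channel gene Kcnn4 (1.47) from 6.

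Arterial identity genes split between the strains. Of 29 measured, 5 were at least 2-fold higher in NOD, 3 at least 2-fold lower, and the median was -0.04. Gja5 was read at 92.4 and 44.0 CPM (1.07, 0.79 to 1.35), Bmx at 58.6 and 19.9 (1.55, 1.18 to 1.93) and Fbln2, a matrix fibulin, at 473.6 and 234.3 (1.02, 0.89 to 1.14). The fifth gene was Gkn3, from 1 NOD cell and 4 CD1 cells. Mecom stood at 1057.1 and 614.8 (0.78, 0.70 to 0.86). Hey2, a Notch target, gave 0 UMIs in NOD and 59 in 46 CD1 cells, at least 4.74-fold lower when NOD is set to 3 counts, whereas its relative Hey1 had -0.14. The chemokine receptor gene Cxcr4 had -1.05 (-1.68 to -0.47), and Cytl1 came from 4 and 9 cells. Dll4 (-0.06), Notch1 (0.09), Notch4 (0.17) and Efnb2 (-0.04) had intervals that included 0.

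Several of these values moved with the settings. With the rule applied to thinned barcodes the median of the list turned to 0.13, Gja5 had 0.57 and Fbln2 0.64. With at least 3 arterial UMIs Gja5 had 1.18, Bmx 1.70 and Fbln2 1.05, and with only cells of at most 5% mitochondrial UMIs Bmx had 0.94. Edn1 stayed at 1.25 or above under every alternative tried.

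Matrix genes of the arterial wall were split. Of 26 measured, 13 lay above 0 and 13 below, 3 were at least 2-fold higher in NOD and 1 lower, with a median of 0.04. Their sum was lower in NOD, at 8000.8 against 9393.0 CPM, a ratio of -0.23 (-0.26 to -0.21). Fbn1, the microfibril protein fibrillin-1, had 1.15 (0.90 to 1.39), Mgp, an inhibitor of calcification, 1.04 and Fbln5 1.00 (0.76 to 1.23), just under the 2-fold line. With the rule applied to thinned barcodes Fbn1 had 0.58 and Mgp 0.55. Mgp was found in 55 NOD and 99 CD1 cells and had 0.14 with at most 5% mitochondrial UMIs. Among those below were Sparc, at -0.64 (-0.69 to -0.58), and the basement membrane genes Lamb1 (-0.74), Hspg2 (-0.56) and Col4a1 (-0.24). The elastic fibre gene Eln had 0.58 (0.41 to 0.76).

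Some capillary and lipid genes also differed within the arterial cells. The lipid handling list as a whole was split. Its median was -0.06, with 7 of its 16 measured genes above 0 and 9 below. A 2-fold NOD excess was reached by 3 of the 16, and a 2-fold CD1 excess by 1. Cd36 was read at 1064.9 CPM in NOD and 457.0 in CD1, a ratio of 1.22 (1.14 to 1.30), and at 1.14 in capillary cells. Meox2, a homeobox regulator of endothelial fatty acid uptake, had 2.58 (2.07 to 3.11), in 24 NOD and 23 CD1 cells, and 1.86 with at most 5% mitochondrial UMIs. Esm1, a VEGF-induced proteoglycan, had -1.10 (-1.27 to -0.93), Kdr -0.63, and Gpihbp1, the anchor of lipoprotein lipase, -0.72. Of the 14 capillary genes measured, 10 lay below 0, with a median of -0.33, while 3 were at least 2-fold higher and 1, Esm1, at least 2-fold lower. Their sum had a ratio of -0.20. Aplnr, the apelin receptor, which stood in the venous list, had -1.11. Of the 10 venous genes measured, 7 lay above 0, with a median of 0.66. Of these 10, 1 was at least 2-fold higher and 1, Aplnr, at least 2-fold lower.

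Flow and BMP response genes differed little. None of 15 flow response genes and none of 23 BMP and TGF-beta genes was past 2-fold in either direction, with medians of -0.06 and 0.15. The flow-induced factor Klf2 had 0.47 (0.38 to 0.57) and Klf4 0.21. Immediate early genes, which respond to tissue dissociation, had a median of 0.32 with 2 of 15 at least 2-fold higher, Egr3 and Atf3, and 1 lower, the nuclear receptor Nr4a1 (18.6 against 92.0, -2.31). Among 10 heat shock genes 3 were at least 2-fold higher, with Hspa1a at 1.42 and Hsph1 at 1.58. The part of dissociation in these values was not tested.

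The genes ranked highest in NOD by the interval bound nearest 0 were nearly absent from CD1. Ceacam2 gave 111 UMIs in 82 NOD cells and 0 in CD1, at least 154-fold higher when CD1 is set to 3 counts. Trim5 gave 63 and 0 UMIs, and Trim30d, of the same antiviral family, gave 96 and 2. The others of the 12 were Cxcl9, Cxcl10, Hbb-bt, Zfp804b, BC023105, Tmem266, Serpina1b, Csf2rb and Gm33649. Csf2rb, the common beta chain of the IL-3 and GM-CSF receptors, was read at 63.1 and 3.1 CPM (4.34, 3.68 to 5.05), in 55 NOD and 18 CD1 cells. Hbb-bt came from 1 NOD cell and Zfp804b from 3. Ceacam2, Trim5 and Trim30d belong to families of near-identical copies, where reads can be split between copies, and their strain difference was also present in capillary cells. Trim5 and Trim30d also differed in T cells, at 28.9 against 0.5 CPM and at 39.8 against 0.

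**Figure D5:**
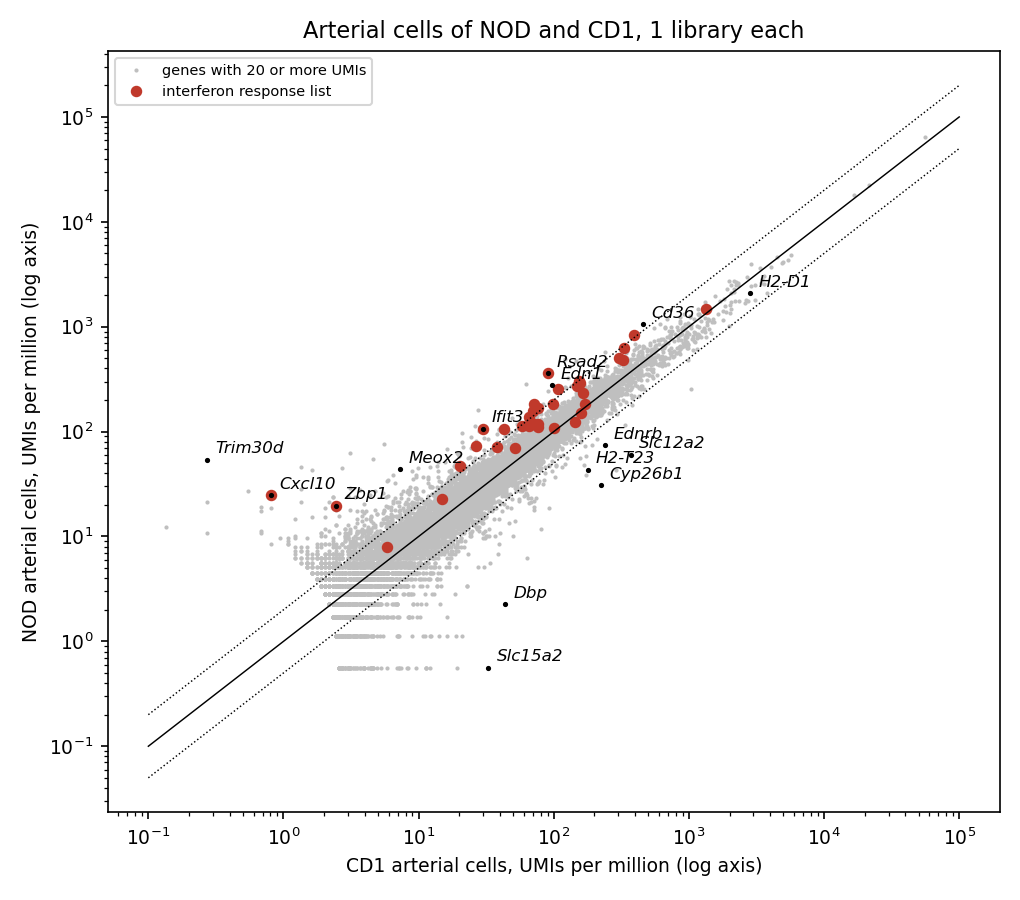
CPM in CD1 (x axis) and NOD (y axis) arterial cells on log axes for genes with at least 20 UMIs and at least 1 in each strain; the solid line marks equal levels and dotted lines 2-fold. Interferon response genes (red) lie mostly above the solid line, with Rsad2 at 358.2 against 90.5, while Slc12a2, Ednrb, Cyp26b1 and Dbp lie below it.

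The genes ranked lowest in NOD were led by Esrrg, which had 0 UMIs in NOD and whose 226 CD1 UMIs came from 7 cells with 157 in 1 of them. The lowest genes also included Ccl21a, with 95 UMIs in 1 CD1 cell. More evenly spread was Slc12a2, the sodium, potassium and chloride cotransporter NKCC1, at 60.3 CPM in NOD and 371.7 in CD1, a ratio of -2.62 (-2.92 to -2.35). It was detected after thinning in 8.84% of NOD and 46.7% of CD1 arterial cells, against 2.04% and 1.78% of T cells. Cyp26b1, which degrades retinoic acid, was at 31.0 and 221.9 (-2.84, -3.26 to -2.45). The capillary cells had -2.77 for Slc12a2 and -2.30 for Cyp26b1. The remaining members of the 12 were Slc15a2, Dbp, Ano2, Slc1a1, Gm53236, Gm15772, Scgb1b27 and Cyp1a1.

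Slc15a2 (1 UMI in NOD and 242 in CD1), Gm53236 and Gm15772 were also lower in NOD T cells, with ratios of -6.75, -2.82 and -3.05, so these differences were not particular to arterial cells. Gm53236 was read at 6.2 CPM in NOD and 62.9 in CD1 arterial cells, beside 132.5 and 7273.8 in droplets of 10 to 100 UMIs, and the part of free RNA in its ratio was not tested. Scgb1b27 encodes a gland secretory protein. The epithelial and secretory list summed to 19.7 CPM in NOD and 87.1 in CD1 arterial cells, with most UMIs from Prol1 in NOD and Klk1 in CD1, and to 244.1 and 4241.9 in droplets of 10 to 100 UMIs. Of its 20 genes, 12 were at 0 in NOD and 3 in CD1. The part of free RNA in the Scgb1b27 value was not tested.

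Markers of other cells were also found in the arterial cells of both strains. Mural genes summed to 145.3 CPM in NOD and 102.8 in CD1, led by Rgs5, and red cell genes to 153.2 and 10.9, led by Hba-a1. In capillary cells mural genes summed to 39.0 and 66.4 and red cell genes to 9.1 and 12.5. In the arterial cells the other lists were as follows. T cell genes summed to 71.0 and 36.8, led by Skap1, and NK cell genes to 111.5 and 37.8, led by Xcl1. Macrophage genes summed to 39.98 and 49.0 and fibroblast genes to 39.98 and 29.6. The B cell list summed to 2648.0 and 2298.6, almost all from Ebf1, which endothelial cells also express. Without the cells that held at least 5 UMIs of other cell types, 210 NOD and 752 CD1 cells were left, and the interferon median was 0.92.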

How the data were processed

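Single-cell RNA-seq of NOD/ShiLtJ and CD1 glands was analysed from the deposited raw UMI counts per gene and barcode, which the authors made with Cell Ranger 8.0.0 per the file headers. The submitters' processing notes also name GRCm39, Seurat 5.0.1 and R 4.3.1. The 2 libraries held 52790319 UMIs in NOD and 56483149 in CD1. Kept barcodes held no fewer than 500 UMIs and 300 genes, with mitochondrial UMIs (37 rows) not above 10%, doublets being removed only in an alternative (Scrublet, scanpy 1.11.5). Arterial, capillary, venous, T cell and macrophage barcodes were chosen by marker UMIs, and their UMIs were summed per library and scaled to 1000000 (CPM). Ratios were taken for genes with at least 20 UMIs, a zero being set to 3 counts. Intervals are 95% exact Poisson for levels, Clopper-Pearson for shares and conditional binomial for ratios (scipy 1.17.1). The ratio intervals were run on simulated Poisson counts, the model that they assume. That run cannot show how they hold where UMIs cluster in few cells. The genes named were the rule genes and markers, the 12 highest and 12 lowest by the interval bound nearest 0 between strains, the 12 highest and 8 lowest against capillary and venous cells, and members of each list with most UMIs or the largest ratios. Members and lists were chosen with earlier results of these data known. The labels and the study's text name different dissociation enzymes. Alternatives changed the barcode limits, doublets, arterial threshold, depth, scaling, cell weights, gene minimum and free RNA. A member of the interferon list is counted in its totals and is not reported here by itself.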

Additional observations from a re-analysis of the deposited data

Results flagged for a closer look

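Of 501 named or listed genes, 7 had NOD over CD1 log2 ratios whose 95% counting intervals lay wholly on opposite sides of 0 in arterial and capillary cells, each with at least 20 UMIs over both libraries. The differences between the cell classes were not tested. In arterial cells Cavin1 had 0.17, H2-K1 0.07, Hsp90ab1 0.13, Ifitm3 0.16 and Klf4 0.21, with capillary values of -0.14, -0.08, -0.07, -0.07 and -0.13 in the same order. Hba-a1, a haemoglobin gene, had 3.76 against -1.03, with its 134 NOD UMIs in 4 arterial cells and its 41 CD1 UMIs in 15. Rgs5, a mural cell gene, had 1.10 against -0.57 and was found in 12 NOD and 55 CD1 arterial cells.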

How the results depend on the processing

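No paired analysis was possible because each strain had 1 library, and no replicate could be left out. The NOD minus CD1 difference in the arterial share of all barcodes was -9.77 percentage points, and -11.1 at most 5% mitochondrial UMIs, -6.89 at 3 or more arterial UMIs, -4.50 after thinning to 2000 UMIs and -4.50 at 5 or more arterial UMIs. The difference in the share of endothelial cells was -8.05, and -2.86 after thinning and -4.18 at 5 or more. Both shares were themselves smaller under these settings. Of all barcodes they were 2.07% in NOD and 6.57% in CD1 after thinning, and 1.95% and 6.45% at 5 or more. The sizes of differences in percentage points thus cannot be compared directly between settings. Genes at least 2-fold higher in NOD numbered 623 against 563 lower, and 357 against 590 after thinning, 399 against 689 at 5 or more, 300 against 319 with at least 50 UMIs and 1955 against 791 with at least 1 UMI, so that lower genes outnumbered higher ones in the first 3 of these. A gene minimum sets how many genes are counted. The cause of the other shifts was not tested. The arterial identity median of -0.04 turned to 0.13 after thinning and 0.15 at 5 or more. The interferon median stayed between 0.79 and 0.98, and the MHC class I median ran from -0.14 to 0.07. Of 612 values for single named genes under an alternative, 67 differed from the main value by more than 50% of the width of its interval. For a gene at 0 in 1 library the limit was the distance from its floored value to its finite bound. Another 2 values came out above 0, Cyp1a1 at 0.27 after thinning and Esrrg at 1.26 without cells holding other cells' UMIs. Both genes had 0 UMIs in NOD and were set to 3 counts, so no direction can be read from these 2 values. The threshold of 5 and the removal of cells with other cells' UMIs were chosen after seeing the data.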

Other observations

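Circadian clock genes, chosen after their values were seen, were another group with large ratios in arterial cells. Of 18 genes, 17 had at least 20 UMIs, 9 were at least 2-fold lower in NOD and 2 at least 2-fold higher. Over all measured genes of arterial cells these shares were 4.65% and 5.14%. Dbp, a clock output factor, had a log2 ratio of -4.28 and Nr1d1, the repressor REV-ERB alpha, of -2.75, whereas Bmal1, the activator that Nr1d1 represses, had 1.51 (1.20 to 1.81). Capillary cells had -2.84 for Nr1d1 and 1.54 for Bmal1, with 9 genes lower and 3 higher, against 3.93% and 5.89% of all genes measured there. In T cells Dbp had -0.09, Nr1d1 -0.91 (-2.21 to 0.65) and Nr1d2 0.25, while Per3 had -1.17 (-1.78 to -0.52), Bmal1 0.69 (0.40 to 1.00) and Npas2 1.32 (0.37 to 2.47). The part of the time of day of tissue collection, for which the sources used give no value, was not tested.

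The tables also hold rows for tdTomato and CreERT2. CreERT2 had 1 UMI in kept CD1 barcodes and 0 in arterial cells, and tdTomato had 0 in both libraries.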
